A study of Homo sapiens with 6 samples.

Results

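The cytosolic ribosomal protein genes, which encode the protein parts of the ribosomes of the cytoplasm, were followed in 6 human glioblastoma xenografts. Members were all probe sets that the platform annotation pairs with 1 gene symbol of this family, a rule that uses names and no measured value. That gave 121 of 54675 probe sets, for 60 of 19775 genes. The family itself was chosen with earlier results of these data known, so the choice was not blind to them. The reference gene table holds 85 such genes. Of the others, 15 had only probe sets paired with several genes and 10 had none listed, and they were not analysed here.

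The tumours were U87-EV, a form of the established human glioblastoma line U87, grown under the skin of female BALB/c SCID mice aged 6 to 8 weeks after injection with Matrigel. The labels do not explain EV. The 3 bevacizumab arrays came from tumours of mice given 10 mg/kg of this antibody against human vascular endothelial growth factor A into the peritoneum every 3 days, and the 3 control arrays from tumours of mice given saline. Dosing began at tumour volumes of 150 to 200 mm3 with 5 mice in each group, and tumours were taken at a diameter of about 15 to 30 mm. SCID mice lack mature T and B cells. Whether every array stands for its own mouse is not stated in the labels, so p-values reflect only how these arrays vary, part of which may be technical. Tumour RNA may include RNA of the mouse host.

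Each cytosolic ribosome is built from a small subunit, which reads the messenger RNA, and a large subunit, which joins amino acids. Their proteins are made in matching amounts, and most of their messenger RNAs are short, abundant and begin with a 5′ terminal oligopyrimidine tract, known as TOP: a C at the cap followed by a run of pyrimidines. The kinase complex mTORC1 and the RNA-binding protein LARP1 act on such messages mainly by changing how well they are translated and how stable they are. A few family members are paralogs, extra copies of a ribosomal protein gene that are often expressed in particular tissues. They are called paralog-type genes below, and they number 8 of the 60 genes, beside 30 of the large subunit, 20 of the small subunit and 2 of the stalk, the part of the large subunit that contacts translation factors.

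Start sequences are shown for paralog-type genes, which held the member calls at the gene level. Then come the parents RPL22, RPS27, RPL39, RPL36A and RPL3, and last RPS6, RPL31 and RPLP1, which are described below. RPL39L and RPL3L are named only. All are RefSeq windows of GRCh38.p14, written 5′ to 3′ on the transcribed strand, with 15 bases before the annotated start and 15 from it. Capitals mark the first 5 transcribed bases.
RPL26L1, first start, chr5:172958714-172958743, plus strand: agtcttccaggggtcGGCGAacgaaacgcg
RPL26L1, other start, chr5:172958865-172958894, plus strand: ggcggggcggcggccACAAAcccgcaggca
RPL36AL, chr14:49620612-49620641, minus strand: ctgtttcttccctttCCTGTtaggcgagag
RPS27L, chr15:63157463-63157492, minus strand: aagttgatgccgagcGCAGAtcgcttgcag
RPL7L1, chr6:42879601-42879630, plus strand: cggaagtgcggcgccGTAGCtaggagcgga
RPL10L, chr14:46651767-46651796, minus strand: caggcgtagttaagaGAGCGcattttgact
RPL22L1, chr3:170870181-170870210, minus strand: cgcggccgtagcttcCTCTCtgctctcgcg
RPL22, chr1:6199581-6199610, minus strand: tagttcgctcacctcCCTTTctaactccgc
RPS27, chr1:153990747-153990776, plus strand: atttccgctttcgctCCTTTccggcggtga
RPL39, chrX:119791616-119791645, minus strand: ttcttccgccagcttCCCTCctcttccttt
RPL36A, chrX:101390996-101391025, plus strand: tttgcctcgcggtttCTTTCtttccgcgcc
RPL3, chr22:39319609-39319638, minus strand: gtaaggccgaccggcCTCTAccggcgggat
RPS6, chr9:19380222-19380251, minus strand: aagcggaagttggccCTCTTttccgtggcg
RPL31, chr2:101002274-101002303, plus strand: acaatccttcgcgctCTTCCtttccaactt
RPLP1, chr15:69452803-69452832, plus strand: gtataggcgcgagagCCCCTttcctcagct

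A TOP-type start was counted as a C at an annotated start followed by 4 bases that are each C or T, on the transcribed strand only. It stood at an annotated start of 35 of the 52 member genes with a window (67.3%), against 5.14% of all 27305 genes with a window and 4.07% of all 35116 windows. Among tested genes with a window, 33 of 45 outside the paralog-type class had it and 1 of 6 paralog-type genes, RPL22L1. The starts of RPL36AL and of the parent gene RPL3 begin with C but hold a purine among their first 5 bases, and those of RPL26L1, RPS27L, RPL7L1 and RPL10L do not begin with C. The match describes letters at an annotated start and is not a measured start site.

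Values are log2 expression values made with GCRMA, so a difference of 1 is a 2-fold change in signal. A gene was represented by its probe set with the highest mean, and 58 of the 60 members passed the filter of a mean of at least 4 over the 6 arrays. The other 2 were dim on the single-gene probe sets that were kept. RPL3L, the heart and skeletal muscle paralog of RPL3, lay at the lowest value of the table, 2.23, on every array. RPLP2, a stalk gene, had 3.22, 2.97 and 2.91 on the bevacizumab arrays, against 2.94, 3.97 and 2.99 on the control arrays. Of the 60 genes, 8 are also read by probe sets that the annotation pairs with several genes and that were left out, among them RPLP2, RPL36A, RPL27A, RPL3 and RPL7L1.

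Some facts of the arrays bear on all values. The control probe sets for ACTB differed between the 3′ and 5′ end by 1.81 ± 0.16 on the bevacizumab arrays and 1.38 ± 0.26 on the control arrays (SD, n = 3 each, exact permutation p = 0.2, two-sided, smallest possible p = 0.1). For GAPDH this difference was -0.02 ± 0.03 on the bevacizumab arrays and -0.12 ± 0.02 on the control arrays (SD, n = 3 each, exact permutation p = 0.1, the smallest possible). The 18S ribosomal RNA control probe sets read 8.20 ± 1.1 on the bevacizumab arrays and 9.13 ± 0.85 on the control arrays (SD, n = 3 each, exact permutation p = 0.2). Of 8 glial and glioblastoma markers, GFAP, S100B and OLIG2 lay under 4 on every array, and VIM, CD44, NES and FABP7 lay at 4 or more on every array. NES fell by 1.18 on the log2 scale (limma adjusted p = 0.0072). FABP7, VIM and CD44 had log2 fold changes of 1.02, 0.12 and 0.11, none of which passed (limma adjusted p = 0.0634, 0.364 and 0.325). SOX2 did not reach the filter. Of 5 mural markers, RGS5 and ACTA2 fell, with log2 fold changes of -2.85 and -1.79 (limma adjusted p = 0.0022 and 0.0041). PDGFRB, at 0.30, and NOTCH3, at -0.51, did not pass (limma adjusted p = 0.175 and 0.415), and DES did not reach the filter. The summed log2 level of all 5 was 38.6 to 40.1 on the bevacizumab arrays against 43.9 to 44.4 on the control arrays. Of the endothelial markers 4 of 6 lay under 4 on every array, and of the macrophage markers 4 of 5. None of the 2 endothelial, 1 macrophage and 4 fibroblast markers tested passed, and 0 red blood cell markers reached the filter. The part of RNA quality and cell makeup in the results below was not tested. In tumour pieces, fewer cells of a type and less RNA per cell cannot be told apart. Host cells in these xenografts are mouse cells, and how well human probe sets read mouse RNA was not tested. Low or changed endothelial, mural, macrophage and red blood cell markers therefore do not give the number of host cells.

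The genes of the main ribosome showed small differences on the brightest probe set of each gene. Outside the paralog-type class, 0 of 51 tested members passed the threshold in limma (adjusted p under 0.05 over all genes tested), and 0 had an unadjusted p under 0.05, against 35.8% of all genes tested. With the paralog-type genes included, 2 of 58 members passed (3.45%), both lower after bevacizumab, against 19.1% of all 10233 genes tested. In the all-gene fit, 9.09% of genes were called higher and 9.97% lower. The median log2 fold change of the 58 members was 0.01, with an interquartile range of -0.05 to 0.06, and over all genes tested it was -0.01, with an interquartile range of -0.25 to 0.27. Of the 58, 44 lay within 0.1 of no change and 52 within 0.2. The count of 0 members outside the paralog-type class with an unadjusted p under 0.05 depended on limma's prior variance. With an intensity trend in that variance, the 95% confidence intervals of RPL34 (0.04 to 0.31) and RPL9 (0.003 to 0.31) lay above 0. Neither gene passed the threshold in that fit (limma adjusted p = 0.0789 and 0.133).

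On the probe set that stood for the gene, the 95% confidence interval of the log2 fold change lay within 0.5 of no change for 53 of 58 members and within 1 for 57. The exceptions to the narrower bound were RPL26L1, RPL39L, RPL27A, RPL36 and RPL36A. The median pooled SD between arrays of a group was 0.0567 for members and 0.176 for all genes tested. Signals of the family were high: 52 of the 58 members had a mean of at least 13, where the highest value of the table was 15.99. None of these 52 was called, whereas among 257 other genes with such a mean 63 were called (24.5%). The median pooled SD of those 257 genes was 0.0958. Whether the brightest probe sets were near scanner saturation was not tested, so small differences there do not bound the change of the messenger RNA. Some dimmer probe sets of RPL37 and RPL31, given below, differed by log2 fold changes of 0.97 to 1.09 where the brightest did not. Others did not pass, at 0.29 for RPL37 probe set 224766_at and -0.25 for RPL31 probe set 221593_s_at. The dimmest tested probe sets of RPL7, RPL37A and RPS24 gave -0.69, -0.67 and -0.60, and those of RPS15A and RPL35A 0.44 and 0.43. None of these passed. The groups of arrays did not overlap for 15 of 58 members (25.9%), against 41.0% of all genes tested. Of these, 7 were higher and 8 lower after bevacizumab, against 19.0% and 22.0% of all genes.

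**Figure D1:**
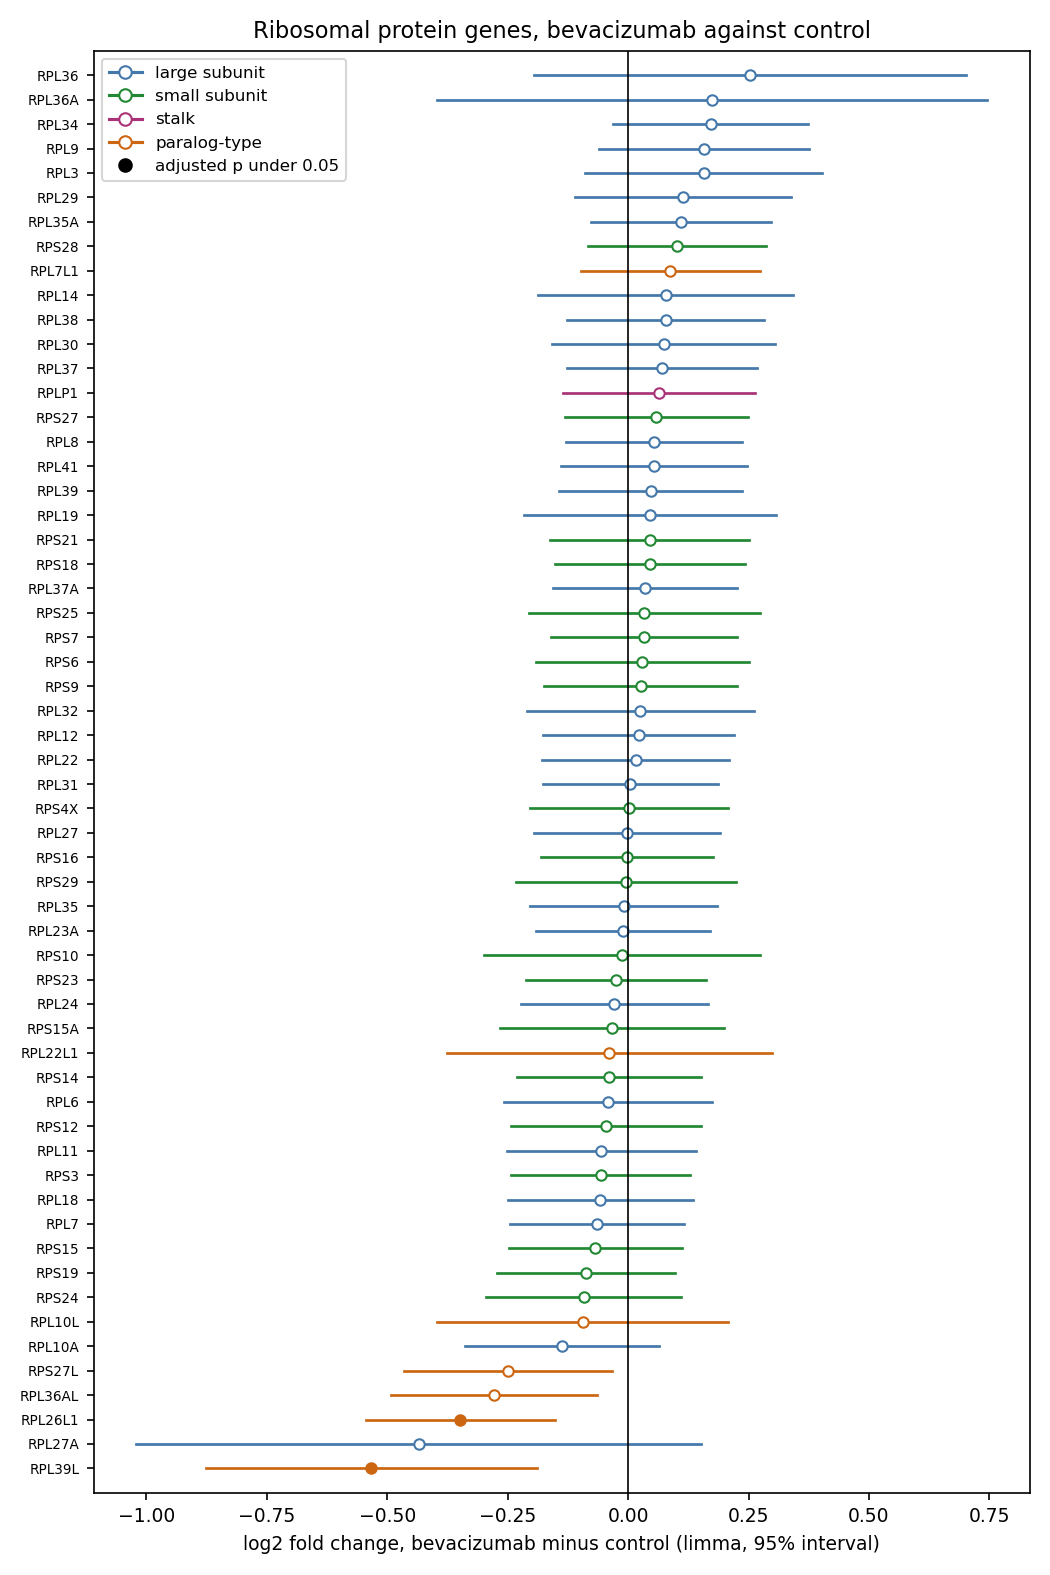
Log2 fold change (bevacizumab minus control) on the horizontal axis with its 95% confidence interval from limma for each of the 58 tested ribosomal protein genes, 3 arrays in each group. Most points of large and small subunit genes lie close to 0, with RPL27A at -0.43 and RPL36 at 0.25 farthest out, and RPL39L and RPL26L1, at -0.53 and -0.35, are the genes past the threshold.

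The family as a whole lay at much the same level on all arrays. The median over the tested members was 14.41, 14.49 and 14.49 on the bevacizumab arrays and 14.46, 14.47 and 14.51 on the control arrays, so the groups overlapped. Bevacizumab array 1 gave the lowest value of its group for 33 of the 58 genes.

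Small subunit genes showed the narrowest spread. None of 20 passed, their median log2 fold change was -0.003, and all values lay between -0.09 and 0.10. RPS6, the protein that S6 kinases phosphorylate downstream of mTORC1, had 13.97, 14.09 and 14.10 on the bevacizumab arrays and 14.13, 13.96 and 13.98 on the control arrays. Its groups overlapped and its log2 fold change was 0.03 (SE 0.09, limma adjusted p = 0.838). RPS4X, an X-linked gene of the small subunit, had a log2 fold change of 0.00 (adjusted p = 0.991). RPS27, the parent of the paralog RPS27L, had 15.49, 15.52 and 15.51 on the bevacizumab arrays and 15.43, 15.52 and 15.41 on the control arrays, with overlap and a log2 fold change of 0.06 (adjusted p = 0.617). RPS19, the gene most often mutated in Diamond-Blackfan anaemia, lay lower on every bevacizumab array, at 14.32, 14.39 and 14.38, than on the control arrays, at 14.46, 14.42 and 14.48. That difference of -0.09 did not pass (adjusted p = 0.443). RPS19 and the genes RPL36, RPL27A, RPL34, RPL9, RPL10A, EEF1A1, NACA, LARP1 and MRPS6 below were picked after their values were seen.

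Large subunit genes also gave 0 calls, among 30 tested, with a median log2 fold change of 0.04 and values from -0.43 to 0.25. RPL11, which with RPL5 and 5S ribosomal RNA forms a particle that can bind MDM2, had 14.04, 14.05 and 13.95 on the bevacizumab arrays and 14.08, 14.02 and 14.11 on the control arrays. The groups overlapped and the log2 fold change was -0.06 (adjusted p = 0.651). RPL39, which lines the exit tunnel of the ribosome, stood at 15.34, 15.43 and 15.35 after bevacizumab and 15.30, 15.33 and 15.36 after saline, a log2 fold change of 0.05 (adjusted p = 0.695). RPL3, a protein near the peptidyl transferase centre, had a log2 fold change of 0.16 (adjusted p = 0.312), and RPL22, which binds RNA, 0.02 (adjusted p = 0.903).

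The ends of the large subunit range came from less precise genes. RPL27A read 8.48, 7.78 and 7.88 on the bevacizumab arrays and 8.15, 8.80 and 8.49 on the control arrays. The groups overlapped, and the log2 fold change of -0.43 did not pass (95% confidence interval -1.02 to 0.15, adjusted p = 0.248). RPL36 read 12.86, 13.41 and 13.48 on the bevacizumab arrays and 13.12, 13.01 and 12.86 on the control arrays, so bevacizumab array 1 was the lowest of the 6 arrays and the other two bevacizumab arrays the highest. Its log2 fold change was 0.25 (adjusted p = 0.366). Without bevacizumab array 1 it was 0.45 and passed narrowly (adjusted p = 0.0492, range over all alternatives 0.0492 to 0.815). RPL36A, one of the 3 dimmest members, had 4.46, 4.49 and 3.86 on the bevacizumab arrays and 3.86, 3.95 and 4.46 on the control arrays, with overlap and no call (adjusted p = 0.623).

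Among the large subunit genes whose groups did not overlap, RPL34 had 14.58, 14.68 and 14.66 on the bevacizumab arrays and 14.39, 14.53 and 14.48 on the control arrays. Its log2 fold change of 0.17 did not pass (adjusted p = 0.194). RPL9 had a log2 fold change of 0.16 (adjusted p = 0.255) and RPL10A one of -0.14 (adjusted p = 0.283). The stalk gene RPLP1, one of the 3 brightest members with RPL37 and RPS27, read 15.64, 15.78 and 15.71 on the bevacizumab arrays and 15.66, 15.67 and 15.59 on the control arrays, with overlap and a log2 fold change of 0.06 (adjusted p = 0.604).

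**Figure D2:**
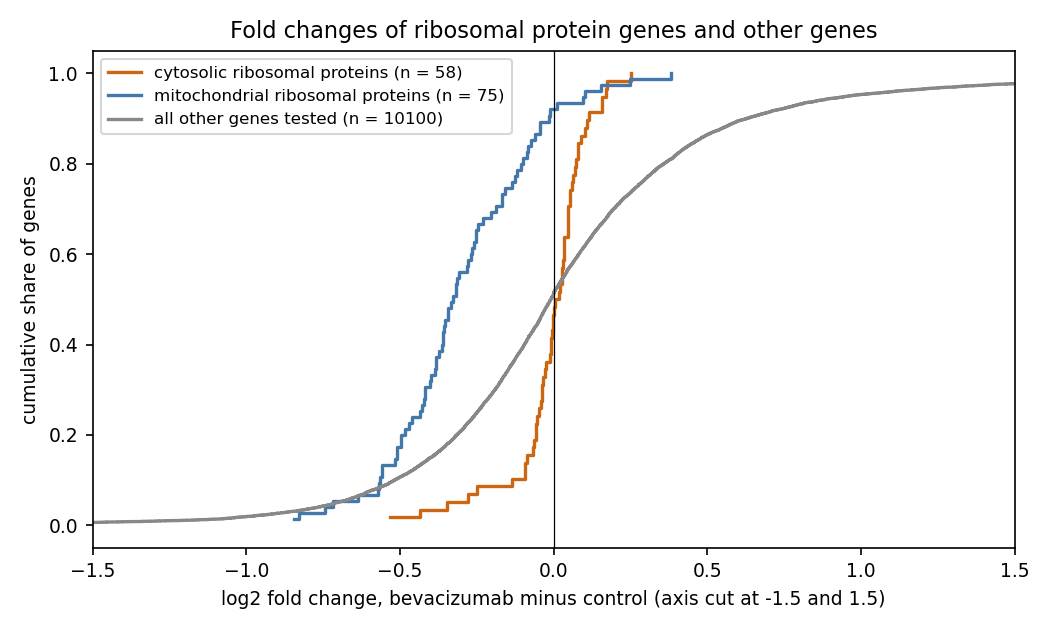
Cumulative share of genes (vertical axis) against the log2 fold change, bevacizumab minus control (horizontal axis), for 58 cytosolic ribosomal protein genes, 75 mitochondrial ribosomal protein genes and all other genes tested. The cytosolic curve climbs steeply at 0, with a median of 0.01, and the mitochondrial curve lies to its left, with a median of -0.33.

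At the gene level, with 1 probe set for each gene, the paralog-type genes held every member call. Of 7 tested, RPL39L and RPL26L1 fell after bevacizumab, 0 rose, and the median log2 fold change was -0.25, with values from -0.53 to 0.09. Over all genes tested 9.97% were called lower, and 7 genes are too few to set the class apart from that share. RPL39L, the paralog of RPL39 known for its expression in male germ cells, had 7.46, 7.64 and 7.80 on the bevacizumab arrays, against 8.27, 7.94 and 8.29 on the control arrays. Every bevacizumab value lay below every control value. The mean was 7.63 ± 0.17 after bevacizumab and 8.16 ± 0.20 in controls (SD, n = 3 each). The log2 fold change was -0.53 with an SE of 0.14 (limma adjusted p = 0.0474).

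RPL26L1, a near copy of RPL26 in the large subunit, had 11.55, 11.55 and 11.61 on the bevacizumab arrays, against 11.84, 11.94 and 11.98 on the control arrays. These groups were also separate. The mean was 11.57 ± 0.04 after bevacizumab and 11.92 ± 0.07 in controls (SD, n = 3 each). The log2 fold change was -0.35 with an SE of 0.08 (limma adjusted p = 0.0338). RPL26 itself was not analysed here, and probes for near-identical copies can share signal.

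Both calls stood close to the threshold. With 1 array left out, RPL26L1 passed only without bevacizumab array 3 (adjusted p 0.0496 to 0.107), so it was lost without control array 1, 2 or 3 and without bevacizumab array 1 or 2. RPL39L passed in none of the 6 such fits (0.0543 to 0.149). Over all 17 alternatives RPL26L1 passed in 9 (0.0167 to 0.148) and RPL39L in 6 (0.0219 to 0.289), and both kept their direction. Both were lost with the ACTB 3′ to 5′ difference as a covariate, a fit that called 24 of all genes.

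RPL36AL and RPS27L were lower on every bevacizumab array without passing. RPL36AL, a copy of RPL36A, had 12.98, 12.91 and 13.11 on the bevacizumab arrays and 13.24, 13.31 and 13.29 on the control arrays, a log2 fold change of -0.28 (SE 0.09, adjusted p = 0.0751). RPS27L, a paralog of RPS27 that p53 can induce, had 14.33, 14.43 and 14.29 on the bevacizumab arrays and 14.64, 14.51 and 14.66 on the control arrays, a log2 fold change of -0.25 (SE 0.09, adjusted p = 0.1). With an intensity trend in limma's prior variance, RPL36AL (adjusted p = 0.0338), RPS27L (0.0396) and RPL26L1 (0.0167) passed and RPL39L did not (0.0517). That fit called 20.4% of all genes. The further probe sets of RPS27L had log2 fold changes of -0.42 and -0.29, in the same direction.

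The remaining paralog-type genes differed little. RPL7L1 had 11.37, 11.43 and 11.39 on the bevacizumab arrays and 11.29, 11.35 and 11.28 on the control arrays, separate groups and a log2 fold change of 0.09 that did not pass (adjusted p = 0.447). RPL22L1, the paralog of RPL22, overlapped at 13.93, 13.96 and 14.33 after bevacizumab and 13.99, 14.11 and 14.24 in controls (log2 fold change -0.04, adjusted p = 0.863). RPL10L, the testis paralog of RPL10, overlapped at 5.74, 5.79 and 5.90 after bevacizumab and 5.81, 6.13 and 5.78 in controls (log2 fold change -0.09, adjusted p = 0.615).

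**Figure D3:**
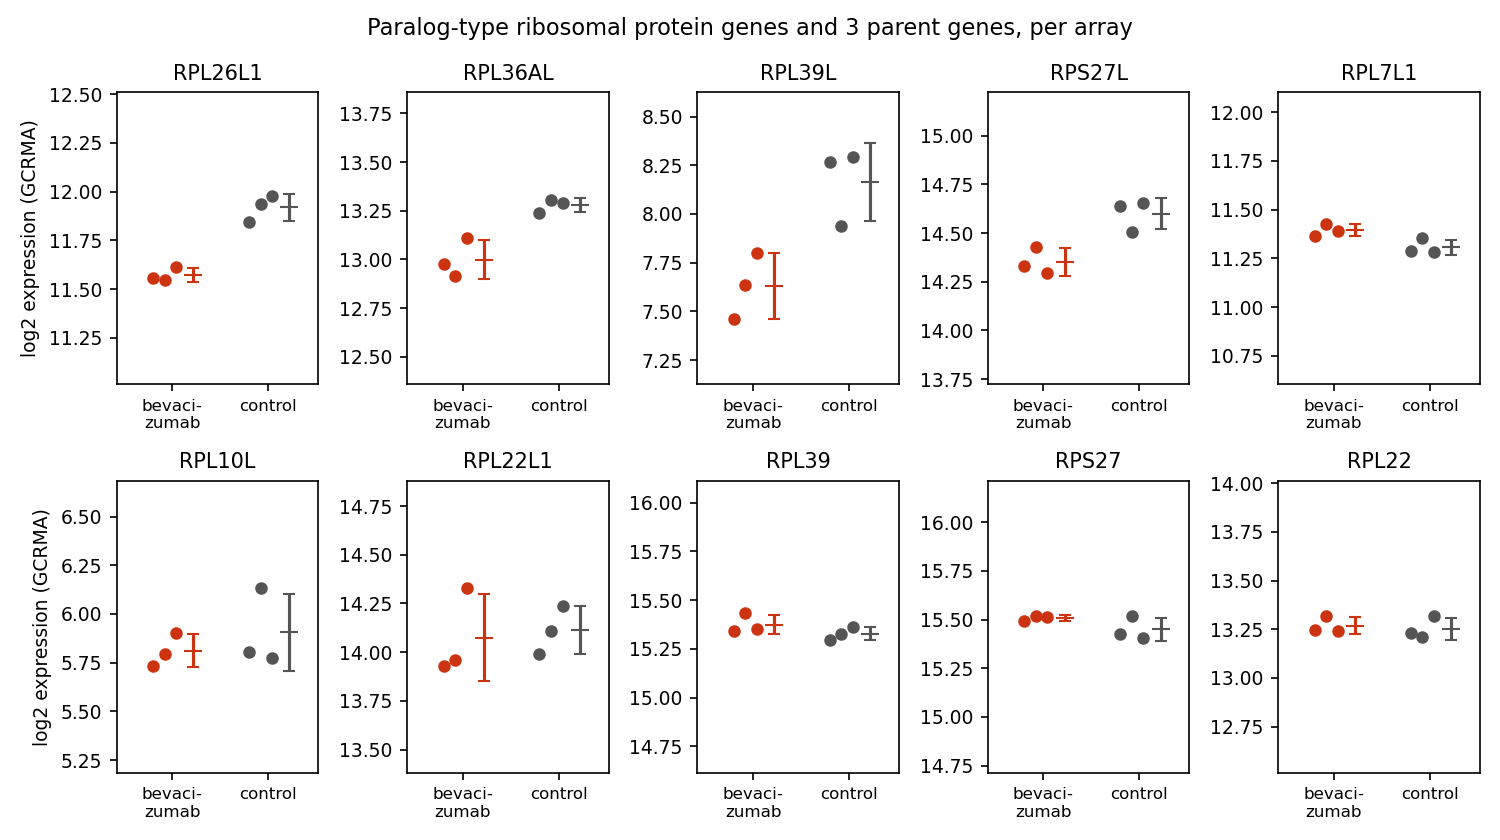
Log2 expression per array of the tested paralog-type genes and of the parent genes RPL39, RPS27 and RPL22. There are 3 bevacizumab and 3 control arrays, each point is 1 array, and bars give the mean and SD. The bevacizumab points of RPL39L, RPL26L1, RPL36AL and RPS27L all lie below the control points of the same gene, and those of RPL22L1 and RPL10L overlap the controls.

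The difference of log2 fold change between a paralog and its parent was tested for the 5 pairs with both genes tested, by an exact permutation test over arrays that cannot go below p = 0.1. Log2 fold changes, not levels, were compared. RPL39L lay below RPL39 by a difference of -0.58 and RPS27L below RPS27 by -0.31, and RPL7L1 lay above RPL7 by 0.15. Each reached the smallest exact p of 0.1 and 0.167 after Benjamini-Hochberg adjustment over the 5 pairs. The parents RPL39, RPS27 and RPL7 had control means of 15.33, 15.45 and 15.35, where the highest value of the table was 15.99. Whether the parent signals were near scanner saturation was not tested, so these differences do not bound those of the messenger RNA. For RPL36AL against RPL36A the difference was -0.45 (exact p = 0.2, adjusted 0.25), but RPL36A read 3.86 to 4.49, around the filter of 4, so nothing is read from that pair. For RPL22L1 against RPL22 the difference was -0.05 (exact p = 0.8, adjusted 0.8). None of these can pass the threshold in a design of this size.

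Read by start sequence, the 34 tested members with a TOP-type start gave 0 calls and a median log2 fold change of 0.02, from -0.43 to 0.25. The 17 tested members with a window and no such start gave 1 call, RPL26L1, and a median of -0.002, from -0.35 to 0.16. Over all genes tested 19.1% were called. Only 1 of the 6 tested paralog-type genes with a window has a TOP-type start, so the groups also differ in class. The other called member, RPL39L, had no window. Of 612 other tested genes with a TOP-type start, 60 were higher and 46 lower (17.3%), with a median of 0.04.

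Most members had several probe sets, and some of these disagreed with the probe set that stood for the gene. Tested one by one, 101 of the 121 member probe sets passed the filter, and 20 did not. Of the 101, 3 were higher and 1 lower (3.96%), against 15.4% of all 18469 probe sets tested, of which 7.46% were higher and 7.98% lower. The lower one was that of RPL26L1. The only probe set of RPL39L did not pass in this fit (limma adjusted p = 0.0581). The 3 higher ones were dimmer probe sets of RPL37 and RPL31, large subunit genes whose brightest probe sets were flat.

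The RPL37 probe set 224763_at had 8.60, 9.07 and 8.57 on the bevacizumab arrays, against 7.60, 7.55 and 7.82 on the control arrays. The groups were separate, and the log2 fold change was 1.09 with an SE of 0.17 (adjusted p = 0.0138). The RPL37 probe set 224767_at had 6.83, 7.09 and 6.58 on the bevacizumab arrays, against 5.96, 5.96 and 5.56 on the control arrays, a log2 fold change of 1.01 (SE 0.18, adjusted p = 0.0196). On the brightest RPL37 probe set, 200092_s_at, values were 15.60, 15.69 and 15.67 on the bevacizumab arrays and 15.56, 15.53 and 15.65 on the control arrays. There the groups overlapped and the log2 fold change was 0.07. With the mean of its probe sets in place of the brightest, RPL37 passed, with a log2 fold change of 0.61 (adjusted p = 0.022, range over all alternatives 0.022 to 0.922).

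RPL31 showed the same kind of split. Its probe set 200962_at had 8.21, 8.62 and 8.25 on the bevacizumab arrays, against 7.07, 7.50 and 7.59 on the control arrays, a log2 fold change of 0.97 (SE 0.18, adjusted p = 0.0239). Its brightest probe set, 200963_x_at, had a log2 fold change of 0.00, and its probe set 221593_s_at one of -0.25 that did not pass (adjusted p = 0.2). Where in the transcripts these probe sets lie was not given in the tables used here.

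A fit of each further probe set against the brightest one of its gene, chosen after seeing the data, called 0 of 43 member probe sets, against 0.461% of the 8236 tested. In it RPL37 probe set 224763_at differed by 1.02 (adjusted p = 0.0529), 224767_at by 0.94 (adjusted p = 0.0731) and RPL31 probe set 200962_at by 0.97 (adjusted p = 0.0644). With 1 array left out, the call of 224763_at was lost without control array 1 or 2 (adjusted p 0.0253 to 0.0648). The call of 224767_at held only without bevacizumab array 1 or 3 (0.0318 to 0.0667), and that of 200962_at only without bevacizumab array 1 (0.0399 to 0.0681).

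**Figure D4:**
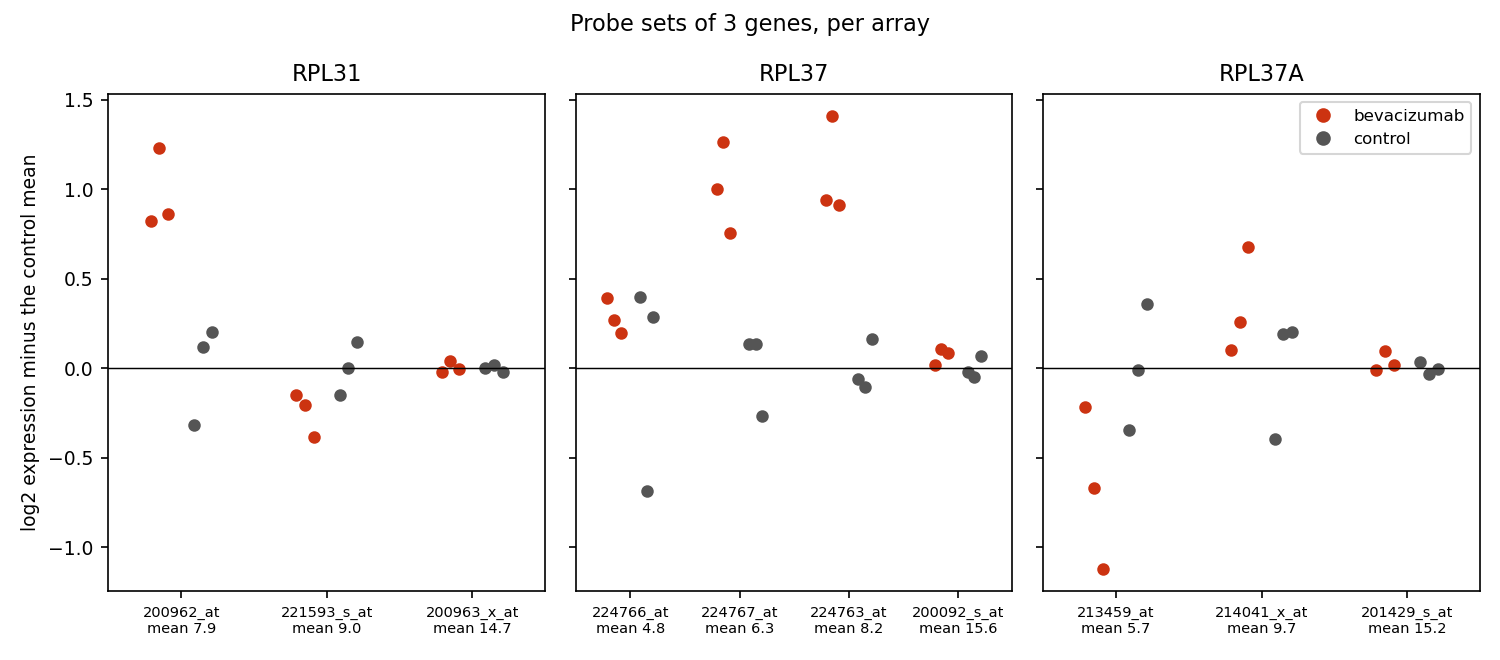
Log2 expression minus the control mean of the probe set, per array, for the tested probe sets of RPL31, RPL37 and RPL37A. These genes have the widest ranges of log2 fold change between probe sets. Each point is 1 array, bevacizumab or control. RPL37 probe sets 224763_at and 224767_at and RPL31 probe set 200962_at are higher on all bevacizumab arrays than on any control array. RPL31 probe set 221593_s_at is lower on all of them, and the brightest probe set of each gene differs little.

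Of the 26 genes with several tested probe sets, 12 held log2 fold changes of both signs. The widest ranges within a gene were 1.22 for RPL31, 1.02 for RPL37, 1.02 for RPL37A, 0.62 for RPL7 and 0.50 for RPS24. RPL37A ranged from -0.67 on probe set 213459_at (adjusted p = 0.157) to 0.35 on 214041_x_at, with 0.03 on its brightest. For RPL7 and RPS24 the dimmest tested probe sets gave -0.69 and -0.60 and the brightest -0.07 and -0.09, and none of them passed. RPS4X was at the other end, with 2 probe sets within 0.00189 of each other.

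Genes that carry TOP starts beside the ribosomal proteins, taken from a list of translation factors and related genes, also gave no calls. Of 20 listed, 16 were tested and 0 passed, with 3 at an unadjusted p under 0.05 and a median log2 fold change of -0.02. Over all genes tested 19.1% passed and 35.8% had an unadjusted p under 0.05. EEF1A1, the factor that brings aminoacyl-tRNA to the ribosome, had a log2 fold change of -0.04 (adjusted p = 0.746). EEF2, the translocation factor, had 13.72, 13.74 and 13.79 on the bevacizumab arrays and 13.49, 13.59 and 13.51 on the control arrays, a log2 fold change of 0.22 (adjusted p = 0.0987). EIF3L, a subunit of initiation factor eIF3, had 13.02, 12.94 and 12.98 on the bevacizumab arrays and 13.25, 13.25 and 13.50 on the control arrays, a log2 fold change of -0.35 (adjusted p = 0.0593). EIF4B, an initiation factor, had a log2 fold change of 0.28 (adjusted p = 0.102), and TPT1, the translationally controlled tumour protein, one of 0.10 (adjusted p = 0.393). The groups did not overlap for 5 of the 16 genes, EEF2, EIF3L, EIF4B, TPT1 and NACA, against 41.0% of all genes tested.

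Among 16 tested regulators of TOP messages and of mTOR signalling, 2 rose and 0 fell, with a median log2 fold change of 0.10. Over all genes tested 9.09% were called higher and 9.97% lower. LARP1B, a relative of LARP1, had 6.87, 6.66 and 7.49 on the bevacizumab arrays, against 6.02, 6.05 and 6.17 on the control arrays. The groups were separate, with a log2 fold change of 0.92 (SE 0.22, adjusted p = 0.0345). RICTOR, a core part of mTORC2, had 9.25, 9.19 and 9.19 on the bevacizumab arrays, against 8.85, 8.66 and 8.95 on the control arrays, a log2 fold change of 0.39 (SE 0.10, adjusted p = 0.0466). With 1 array left out, LARP1B passed only without bevacizumab array 2 or 3 (0.0258 to 0.113) and RICTOR in 0 of 6 fits (0.062 to 0.121). EIF4E, the cap-binding protein, had a log2 fold change of -0.37 (adjusted p = 0.124), LARP1 one of -0.09 (adjusted p = 0.607), and MYC, which drives ribosomal protein transcription, one of 0.23 (adjusted p = 0.141).

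Of 9 genes for chaperones and escorts of ribosomal proteins, 2 fell, 0 rose, and the median log2 fold change was -0.29. Over all genes tested 9.97% were called lower, and so few listed genes do not separate the list from that share. HEATR3, which helps carry RPL5 and RPL11 into the nucleus, had 8.88, 8.80 and 8.87 on the bevacizumab arrays, against 9.31, 9.21 and 9.38 on the control arrays. The groups were separate, with a log2 fold change of -0.45 (SE 0.09, adjusted p = 0.0197). LTV1, a small subunit assembly factor, had 9.72, 9.58 and 9.57 on the bevacizumab arrays, against 9.96, 9.92 and 10.10 on the control arrays, a log2 fold change of -0.36 (SE 0.09, adjusted p = 0.0432). With 1 array left out, HEATR3 passed only without bevacizumab array 1 or 3 (0.033 to 0.0728) and LTV1 only without bevacizumab array 1 (0.0443 to 0.111). BCCIP, an RPL23 chaperone, and AAMP had log2 fold changes of -0.61 (adjusted p = 0.0577) and -0.29 (adjusted p = 0.0878).

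The mitochondrial ribosomal proteins, encoded in the nucleus and used by the separate ribosome inside mitochondria, are given beside the cytosolic ones for their values alone. Of 75 tested, 23 fell and 1 rose, with a median log2 fold change of -0.33, where 9.97% of all genes were called lower and 9.09% higher. MRPS11 had 9.09, 8.93 and 9.02 on the bevacizumab arrays, against 9.85, 9.85 and 9.89 on the control arrays, separate groups and a log2 fold change of -0.85 (SE 0.08, adjusted p = 0.00406). MRPL15 fell by 0.72 (adjusted p = 0.00609), MRPS17 by 0.83 (adjusted p = 0.00644) and MRPS7 by 0.57 (adjusted p = 0.0109) on the log2 scale, and MRPS6 rose by 0.38 (adjusted p = 0.033). MRPS7 was lost without control array 1 (adjusted p = 0.0507). The number of calls was 4, 8 and 5 without control array 1, 2 or 3, and 16, 9 and 15 without bevacizumab array 1, 2 or 3. The difference between the 2 families as wholes was not tested.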

How the data were processed

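RNA was measured on 6 one-colour Affymetrix arrays, 3 bevacizumab and 3 control. The deposited table holds log2 values that the authors made with GCOS 1.1.1.052 and GCRMA, per the submitters' processing notes. That the scale is log2 was taken from the values and from GCRMA's usual output. Values were used as deposited.

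Probe sets with 1 gene symbol were kept (41091), and each gene was represented by its brightest. limma 3.58.1 in R 4.3.3 compared the 10233 genes whose mean reached 4 (lmFit and eBayes, Benjamini-Hochberg over all genes, two-sided, threshold 0.05), which was tested on simulated data. Probe sets were fitted likewise. Named genes were the paralog-type, parent, stalk and 5S particle genes with RPSA, RPS6 and RPS4X, calls without overlap, the 5 genes with the widest probe set spread, the 3 brightest and dimmest, and up to 4 genes of each list with the smallest p. RPL10, RPL26, RPLP0, RPL5 and RPSA were not analysed here. The members and lists were chosen with earlier results of these data known. The number of arrays limits the precision, and no source used here gives array dates or batches. Alternatives were other probe set choices, filters, scalings, a variance trend, covariates, a replicate block and leaving out arrays.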

Additional observations from a re-analysis of the deposited data

How the results depend on the processing

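The median log2 fold change of the members stayed near 0 in all alternatives, from -0.01 to 0.03 with 1 array left out. Centring moved the median of all genes from -0.01 to -0.05. Members called higher numbered 0, and 1 with the mean of a gene's probe sets. Members called lower numbered 2, but 1 with no filter 0 with the ACTB covariate, the 18S covariate and the replicate block, and 3 with the variance trend. With 1 array left out, 0 to 1 were higher and 0 to 1 lower. Probe sets called higher numbered 3, and 0 with no filter, and those called lower 1, against 0 with no filter, 2 with a filter at 6, 2 after centring and 3 with the variance trend. With 1 array left out they numbered 0 to 3 higher and 0 lower. TOP partner calls were 0, against 1 after centring, 1 after quantile normalization and 2 with the trend, and 0 in each fit with 1 array left out. Regulator calls were 2, against 1 with the mean of probe sets and 0 with no filter, the ACTB covariate or the 18S covariate, and 0 to 1 with 1 array left out. Chaperone calls were 2, against 1 with the mean of probe sets, 1 with no filter, 0 with the ACTB or 18S covariate, and 0 to 2 with 1 array left out. Mitochondrial calls were 24, against 6 with no filter, 0 with the ACTB covariate, 3 with the 18S covariate, and 4 to 16 with 1 array left out. Over all genes the calls numbered 1950, against 598 of 19775 with no filter, 24 with the ACTB covariate and 693 with the 18S covariate, and 558 without control array 2 to 2074 without bevacizumab array 1. The fit with no filter tested more genes and the fits with 1 array left out used fewer arrays, but the cause of the differing counts was not tested.

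The labels do not say whether the replicate numbers pair the arrays. Same-numbered arrays correlated at -0.05, -0.01 and -0.05 in their deviations from the group means, so no strong shared deviation was seen. With a replicate block, 904 genes were called. It called 0 members lower, 0 member probe sets lower, 1 regulator, 0 chaperones and 5 mitochondrial genes. Probe sets near the lowest value of the table have no order, and 3 arrays in a group leave differences of single genes near the threshold uncertain.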
